A study of Arabidopsis thaliana with 24 samples.

Results

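Of the 23842 genes listed in the deposited tables, 71 carry an identifier that starts with ATMG, the prefix given to genes of the Arabidopsis mitochondrial genome, and these 71 are described here. They were chosen by the identifier alone, without regard to their values. The table of the 1 h samples lists 66 of them and the table of the 12 h samples lists 64, with 59 in both, 7 only at 1 h and 5 only at 12 h. RNA was sequenced from whole Arabidopsis seedlings of the wild type Col and of ino80-5, a mutant of INO80 in the Col background, where INO80 is the ATPase of a nuclear chromatin remodelling complex. All seedlings were 7 days old and had grown at 21 °C in short days. Samples of each genotype were taken after a further 1 h or 12 h, spent either at the growth temperature or at 27 °C, which makes 8 groups of 3 libraries. The mutant is a single allele, the labels do not say that replicates came from separate cultures, and p-values therefore measure the spread between these samples, which may be technical.

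Plant mitochondria keep a genome of their own, which codes for a small set of subunits of the respiratory chain and the ATP synthase, for cytochrome c maturation factors, ribosomal proteins, ribosomal and transfer RNAs, and for many reading frames of unknown function. All other mitochondrial proteins are made from nuclear genes, among them the RNA polymerases that transcribe the mitochondrial genome and the factors that splice, edit and trim its transcripts. In plant mitochondria, unlike the cytosol, a poly(A) tail marks a transcript for degradation, and most mature mitochondrial transcripts carry none. The labels state neither poly(A) selection nor strandedness for these libraries.

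Mitochondrial transcripts were a small part of every library. Levels are given in TPM, a value per length of gene scaled so that all genes of a library sum to 1000000. The summed TPM of the ATMG genes ran from 66.6 to 145.7 over the 12 libraries of the 1 h table. Most members were near the limit of detection: only 17 at 1 h and 23 at 12 h reached 1 TPM in at least 3 of the 12 libraries and were tested, 15 at both times and 25 at either. The others were listed but not tested.

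A single unnamed gene held the largest share. ATMG00030 had a mean of 41.7 TPM over the 24 libraries, and it made up 41.8 to 53.9% of the summed ATMG level in the single libraries at 1 h and 26.8 to 40.4% at 12 h. The next by level were ATMG00665 at 8.03 TPM, ATMG00090 at 7.41, ATMG00160 at 5.87, ATMG01370 at 4.66, ATMG00060 at 4.54 and ATMG00660 at 3.88. ATMG00650, ATMG00070 and ATMG00670 closed the first 10 with 2.05, 1.98 and 1.89 TPM. The order by level is not the order by amount of evidence, because TPM divides by gene length. The steps between the TPM values of a gene gave an implied length for 64 members and an estimate of the sequenced fragments behind each value. By estimated fragments, ATMG00090 came first, with 29.7% of all 10336 ATMG fragments at 1 h and 27.0% of 10130 at 12 h. ATMG00090 has an implied length of 3250 bases and ATMG00030 one of 324 bases. ATMG00665 stands apart from both orders: its implied length is 22 bases, so that its TPM rests on 0 to 6 fragments per library, and in 12 h libraries it was either at 0 or at 5.15 TPM and above.

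**Figure D1:**
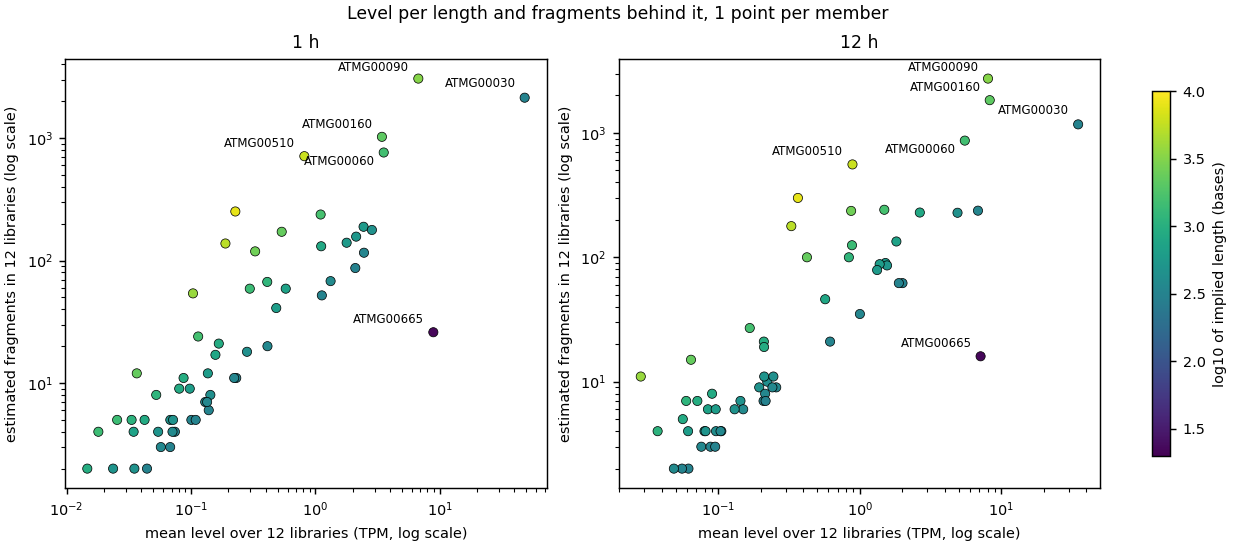
Mean level over the 12 libraries of a table (TPM, log axis) against the estimated fragments summed over those libraries (log axis), with 1 point per member and the colour giving the log10 of the implied length in bases. ATMG00030 lies farthest right at both times, ATMG00090 highest, and ATMG00665 lies far below the other members of its level.

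The reference annotation used here (RefSeq, assembly TAIR10.1) does not carry ATMG identifiers, so their products are known only where a note of a nuclear gene names the ATMG gene as its match. This was the case for 28 members, all named in notes of nuclear loci, and 43 have no name. The nuclear genome of Col holds a large copy of the mitochondrial genome on chromosome 2. In the TAIR10.1 sequences, 72.7% of the 367808 bases of the mitochondrial genome matched a nuclear chromosome at 99% identity or more over at least 150 bases, and 72.6% matched chromosome 2. Fragments from such stretches fit both places, and how the authors' counting treated them is not given in the sources used here. At 1 h the 25 members with a named nuclear match had a median level of 0.0711 TPM and the 41 others one of 0.283 TPM. At 12 h the medians were 0.0962 TPM over 22 members and 0.395 TPM over 42. Of the members with a named nuclear match, 2 were tested at 1 h and 3 at 12 h, against 15 and 20 of the others. The levels of the 28 are uncertain for that reason. A missing note does not show that a gene lacks a nuclear copy, so the same may hold for some of the other members. The part of shared fragments in the low levels was not tested.

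**Figure D2:**
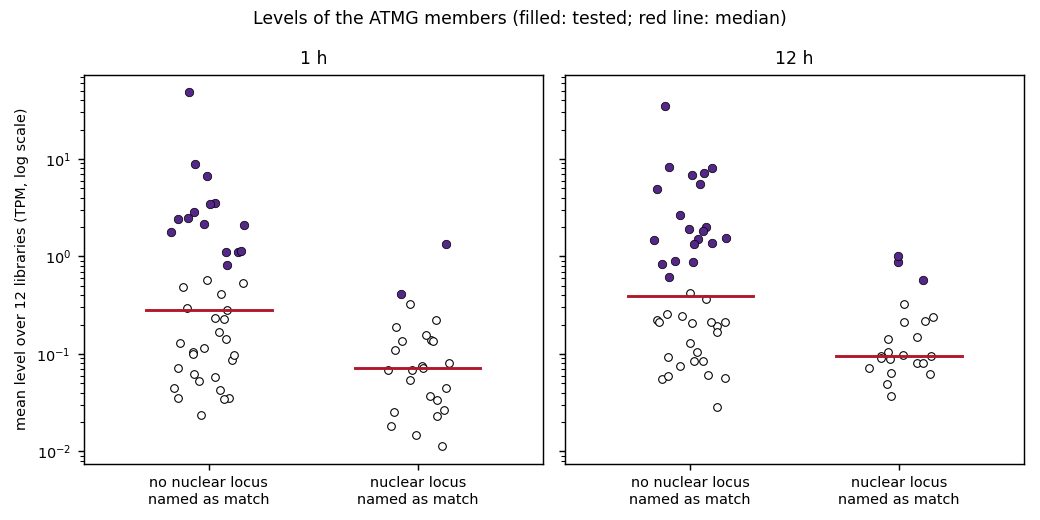
Mean level of each member over the 12 libraries of a table (TPM, log axis), for members with and without a named match in the nuclear genome, with tested members filled and a red line at the median. Members with a named nuclear match sit lower at both times, with medians of 0.0711 and 0.0962 TPM against 0.283 and 0.395 TPM.

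By the nuclear notes, the 28 members include subunits of complex I, which passes electrons from NADH into the chain, of complexes III and IV, which carry them on to oxygen, and of the ATP synthase, which makes ATP from the proton gradient. Differences are given on the scale of log2(TPM + 1), with their standard error, and a gene was called at an adjusted p below 0.05 in the limma fit of its table, two-sided, with Benjamini-Hochberg adjustment over all genes tested. On this scale the change of a low gene is understated. Of the members noted for complex I, only ATMG00990 (NADH dehydrogenase 3) was tested, and only at 1 h. Its differences were 0.08 ± 0.29 for warmth in Col and 0.58 ± 0.29 for warmth in ino80. Neither was called (adjusted p = 0.861 and 0.144, limma). The other members noted for complex I, ATMG01275 (NADH dehydrogenase 1A) and ATMG01320 (NADH dehydrogenase 2B), reached at most 0.583 and 0.475 TPM in any library and were not tested. No member noted as a subunit or assembly factor of complexes III and IV was tested. Of the members noted for the ATP synthase, ATMG01090 was tested at 12 h, and of those noted as ribosomal proteins, ATMG00980 at 1 h. Members without a name may include further subunits of these complexes, so these statements cover the noted members only.

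The libraries themselves differed in depth and in makeup. Total fragments were estimated at 12900000 to 24600000 per library at 1 h and 13200000 to 15200000 at 12 h, so that 1 fragment in a gene of 1000 bases was worth 0.067 to 0.130 TPM and 0.108 to 0.127 TPM. INO80 itself was read at means of 18.7 and 15.9 TPM in Col at 21 and 27 °C and 13.5 and 11.3 TPM in ino80 at 1 h, and at 21.6 and 43.4 TPM in Col and 16.8 and 28.7 TPM in ino80 at 12 h, lower in every mutant group than in its Col group, without overlap, but not absent. The labels do not place the mutation within the gene, so reads from outside it check nothing. Of the marker lists, the summed leaf and cotyledon genes fell from means of 38991 to 23306 TPM with 12 h of warmth in Col and from 36001 to 20421 TPM in ino80, dividing-cell genes from 446.8 to 220.6 and from 378.2 to 211.2 TPM. At 1 h the dividing-cell genes summed to 163.4 and 169.9 TPM in Col and 109.3 and 100.8 TPM in ino80, and 2 of the 4 were called lower in ino80 at 21 °C and 4 at 27 °C. In those comparisons 20.5% and 20.4% of all genes were called lower. Root genes at 12 h summed to 2044 and 2295 TPM in Col and 3749 and 3947 TPM in ino80. Of these 6 genes, 2 were called higher and 1 lower in ino80 at 21 °C, and 1 higher and 1 lower at 27 °C. Over all genes 16.7% and 18.7% were called higher and 12.1% and 11.5% lower. Seed maturation genes at 1 h summed to 21.1 and 22.1 TPM in Col and 76.9 and 89.4 TPM in ino80. Floral organ genes did not exceed 3.28 TPM. The part of these shifts in the results on the ATMG genes was not tested, and in whole seedlings fewer mitochondria or cells of a type and less RNA in each cannot be told apart.

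The summed level of the ATMG genes was highest in warmed ino80 at 1 h and in both warmed groups at 12 h. At 1 h the sums were 82.7, 79.5 and 70.9 TPM in Col at 21 °C, 77.6, 84.8 and 66.6 TPM in Col at 27 °C, 104.5, 95.4 and 105.5 TPM in ino80 at 21 °C, and 138.8, 145.7 and 115.4 TPM in ino80 at 27 °C. The Col groups overlapped, with a ratio of warm to cool means of 0.983, while the ino80 groups lay above them without overlap, at 1.31 times the Col mean at 21 °C and 1.75 times at 27 °C. Warmth moved the ino80 sum by 1.31 times, again without overlap. Without ATMG00665, whose fragments are few, the ino80 to Col ratio at 21 °C was 1.2 and those groups overlapped. Without ATMG00030, the warm to cool ratio in ino80 was 1.22 and those groups overlapped.

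At 12 h the sums were 81.3, 89.9 and 75.6 TPM in Col at 21 °C, 119.2, 145.1 and 108.8 TPM in Col at 27 °C, 77.2, 89.8 and 89.6 TPM in ino80 at 21 °C, and 108.1, 132.5 and 118.1 TPM in ino80 at 27 °C. Both warm groups lay above both cool groups, with ratios of 1.51 in Col and 1.40 in ino80, and the genotypes overlapped at either temperature. After scaling by median ratios over genes, the ratios were 1.37 and 1.25, still without overlap. The sums of 1 h and 12 h stand in tables that were normalized separately and are given side by side only.

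A sum of TPM follows the short genes with high values, and estimated fragments give each gene the weight of its length. At 1 h the ATMG fragments per 1000000 ran from 37.7 to 53.2 over the 12 libraries, and all groups compared overlapped. At 12 h they rose from a mean of 59.1 to 67.1 per 1000000 with warmth in Col and from 51.1 to 59.4 in ino80, and ino80 lay below Col at 0.866 times the Col level at 21 °C and 0.885 times at 27 °C, none of these pairs overlapping. The genotypes separated in the TPM sum but not in fragments at 1 h, and at 12 h they separated in fragments but not in the TPM sum. Fragments are led by ATMG00090, and the sum by ATMG00030.

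Chloroplast-encoded transcripts, the other organelle RNA in these libraries, were also highest in warmed ino80 at 1 h and, unlike the ATMG sum, lower in warm than in cool Col. Their summed level averaged 1274 TPM in Col at 21 °C, 890 in Col at 27 °C, 1607 in ino80 at 21 °C and 2363 in ino80 at 27 °C at 1 h. At 12 h it averaged 1267, 1393, 1256 and 1486 TPM in the same order, with overlap between the groups except for warmth in ino80. Whether organelle RNA as a whole entered the libraries unevenly was not tested.

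**Figure D3:**
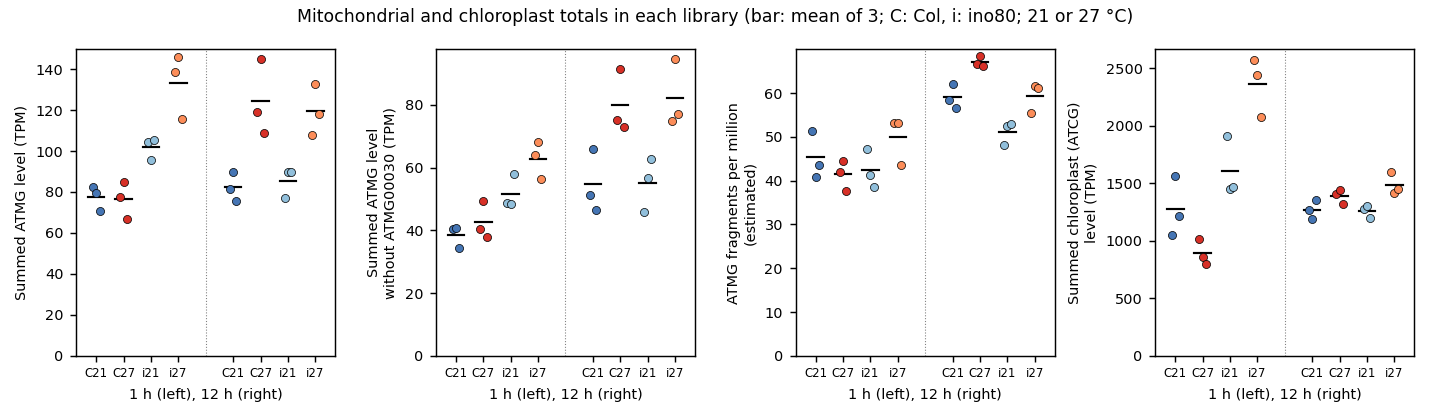
Summed level of the ATMG genes, the same without ATMG00030, estimated ATMG fragments per 1000000, and summed level of the chloroplast-encoded (ATCG) genes, with 1 point per library and a bar at the mean of 3, at 1 h and 12 h (C21 and C27, Col at 21 and 27 °C; i21 and i27, ino80). In the summed level of all ATMG genes, the ino80 libraries lie above the Col libraries at 1 h. At 12 h both warm groups lie above both cool groups in that sum. ATMG fragments overlap between the genotypes at 1 h, and at 12 h those of warm ino80 overlap those of cool Col. The chloroplast sums of the genotypes overlap at 21 °C at 1 h.

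Over all 10 comparisons, 5 at each time, 42 calls were made among the tested members, 36 of them higher and 6 lower. They fell on 22 of the 25 members, and 3 members were called in none. Over all genes, 15.2 to 38.1% were called higher and 11.5 to 21.8% lower in each comparison of temperature or genotype. Totals over several comparisons therefore do not set the members apart from other genes, and the share is given with each comparison. Of the 42 calls, 21 held without each single library in turn and 21 were lost without at least 1 library. Of the members with the most fragments, ATMG00030 was called higher and ATMG00090 lower in ino80 than in Col at 21 °C at 1 h.

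Warmth for 1 h in Col gave no call among the 17 tested members. Over all genes 15.7% were called higher and 18.5% lower in the same limma fit, 2 members had an unadjusted p below 0.05, and the median difference was 0.07 for the members and -0.0049 for all genes. ATMG00030 stood at 42.3, 38.7 and 36.6 TPM at 21 °C and 37.2, 35.4 and 28.7 TPM at 27 °C. The groups overlapped, and the difference of -0.22 ± 0.11 was not called (adjusted p = 0.140).

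Warmth for 1 h in ino80 raised 3 of the 17 members, ATMG00030, ATMG00070 and ATMG00640, and lowered none, where 15.2% of all genes were called higher and 16.8% lower. The count of rises is near the share over all genes. The median difference was 0.21 over the members and 0.0011 over all genes. ATMG00030 stood at 55.9, 47.1 and 47.5 TPM at 21 °C and 74.8, 77.5 and 59.0 TPM at 27 °C. All warm libraries lay above all cool ones, and the rise of 0.48 ± 0.11 (adjusted p = 0.00301, limma) held without each single library.

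ATMG00070 stood at 2.25, 2.39 and 1.81 TPM in ino80 at 21 °C and 4.93, 3.05 and 3.89 TPM at 27 °C. The groups did not overlap, with a rise of 0.64 ± 0.18 and adjusted p = 0.0108 (limma), or 0.0634 without ino80 27 °C replicate 1. ATMG00640 stood at 1.25, 2.5 and 1.3 TPM against 2.86, 2.86 and 4.4 TPM, also without overlap, with a rise of 0.72 ± 0.21 and adjusted p = 0.0167. That call was lost without ino80 21 °C replicate 1, ino80 21 °C replicate 3 or ino80 27 °C replicate 3, with adjusted p of 0.0645 to 0.0851 in limma. Single libraries hold 3 to 24 fragments of ATMG00640 at 1 h and 10 to 29 of ATMG00070.

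In cool seedlings of the 1 h table, ino80 exceeded Col in 4 members, ATMG00030, ATMG00665, ATMG00980 and ATMG01130, and lay below it in ATMG00090. Over all genes 15.4% were called higher and 20.5% lower, and the median difference was 0.32 over the members and -0.03 over all genes. ATMG00090, the member with the most fragments, stood at 9.48, 7.42 and 7.69 TPM in Col and 6.16, 5.95 and 4.91 TPM in ino80. Every Col library lay above every ino80 library, each with 169 to 356 fragments at 1 h, and the difference of -0.46 ± 0.12 (adjusted p = 0.00579, limma) held without each single library. ATMG00030 was higher in ino80 by 0.35 ± 0.11 without overlap, with adjusted p = 0.0206 (limma), but 0.0783 with Col 21 °C replicate 3 left out and 0.0984 with ino80 21 °C replicate 1 left out.

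The other 3 rest on few fragments. ATMG01130 stood at 0.821, 0.407 and 0.487 TPM in Col and 2.26, 2.85 and 1.18 TPM in ino80 at 21 °C, without overlap, and its difference of 0.95 ± 0.21 (adjusted p = 0.00219, limma) held without each library. ATMG00980, noted as a protein of the ribosomal S12/S23 family by the nuclear gene AT2G07675, stood at 0.232, 0.345 and 0 TPM in Col and 1.92, 1.21 and 0.749 TPM in ino80. These are 2 fragments in Col and 18 in ino80, a ratio per sequenced fragment of 7.87 with a 95% counting interval (Clopper-Pearson) of 1.88 to 69.9, which covers counting error only.

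ATMG00980 was called at 21 °C with a difference of 0.92 ± 0.28 (adjusted p = 0.0163, limma) and again at 27 °C with 0.90 ± 0.28 (adjusted p = 0.0179), where Col stood at 2.2, 0.179 and 1.03 TPM and ino80 at 2.32, 2.68 and 3.09 TPM. Neither comparison had overlapping groups. The first call was lost without Col 21 °C replicate 3 or ino80 21 °C replicate 1 (adjusted p = 0.0649 and 0.0789), and the second without Col 27 °C replicate 2 or ino80 27 °C replicate 3 (adjusted p of 0.0614 to 0.0991 in limma). At 12 h ATMG00980 did not exceed 0.597 TPM in any library and was not tested. ATMG00665 stood at 0, 5.93 and 0 TPM in Col and 3.66, 3.46 and 25.7 TPM in ino80, with overlap, from 1 and 8 fragments, a ratio of 6.99 with a counting interval of 0.937 to 310.2. Its call of 2.11 ± 0.71 (adjusted p = 0.0290) was lost without Col 21 °C replicate 1, Col 21 °C replicate 3 or ino80 21 °C replicate 3, with adjusted p of 0.117 to 0.152 in limma.

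In warmed seedlings of the 1 h table, ino80 exceeded Col in 5 of the 17 members, ATMG00030, ATMG00070, ATMG00080, ATMG00640 and ATMG00980, and lay below it in ATMG00510, where 17.1% of all genes were called higher and 20.4% lower. The median difference was 0.41 over the members and -0.01 over all genes. The 3 libraries of ATMG00030 in ino80 at 27 °C, 74.8, 77.5 and 59.0 TPM, lay above the 37.2, 35.4 and 28.7 TPM of Col, a difference of 1.04 ± 0.11 (adjusted p = 2.56e-06, limma) that held without each library. ATMG00080 stood at 1.54, 0.875 and 1.16 TPM in Col and 3.42, 5.79 and 2.55 TPM in ino80, a difference of 1.13 ± 0.22 (adjusted p = 0.000966). ATMG00070 at 2.51, 1.18 and 1.77 TPM in Col lay below its ino80 values by 0.82 ± 0.18 (adjusted p = 0.00167), and ATMG00640 at 1.57, 0.583 and 1.35 TPM by 1.02 ± 0.21 (adjusted p = 0.0013, limma). In none of these did the groups overlap, and all 4 calls held without each library.

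ATMG00510, with an implied length of 6080 bases, went the other way, at 1.03, 1.18 and 0.976 TPM in Col and 0.656, 0.59 and 0.506 TPM in ino80. The groups did not overlap, and the difference of -0.38 ± 0.13 had adjusted p = 0.0289, which rose to 0.0609 and 0.0859 without ino80 27 °C replicate 2 or 3 (limma). ATMG00510 reached 1 TPM only in Col libraries at 1 h. It was thus tested only through the genotype where it is high, a choice that favours a lower level in ino80. Without Col 21 °C replicate 3 or Col 27 °C replicate 1 or 2 it was not tested. ATMG00090 stood at 7.17, 7.39 and 5.91 TPM in Col and 6.56, 6.82 and 5.55 TPM in ino80 at 27 °C, with overlap and no call. Under quantile normalization all 6 calls of this comparison were for higher levels and none lower.

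The response to 1 h of warmth differed between the genotypes in 1 member, ATMG00030, where 1.09% of all genes were called for a larger response in ino80 and 0.792% for a smaller one. The response in ino80 exceeded that in Col by 0.69 ± 0.15 (adjusted p = 0.0293, limma), from -0.22 in Col and 0.48 in ino80. The call was lost when any 1 of 7 libraries was left out, namely Col 21 °C replicate 1 (0.0570), Col 27 °C replicates 2 (0.0538) and 3 (0.0721), ino80 21 °C replicates 2 (0.0590) and 3 (0.0665), and ino80 27 °C replicates 1 (0.0859) and 2 (0.0842), the adjusted p in brackets. Among the 72 chloroplast-encoded genes tested at 1 h, 17 were called for a larger response in ino80 and none for a smaller one, with a median of 0.87.

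**Figure D4:**
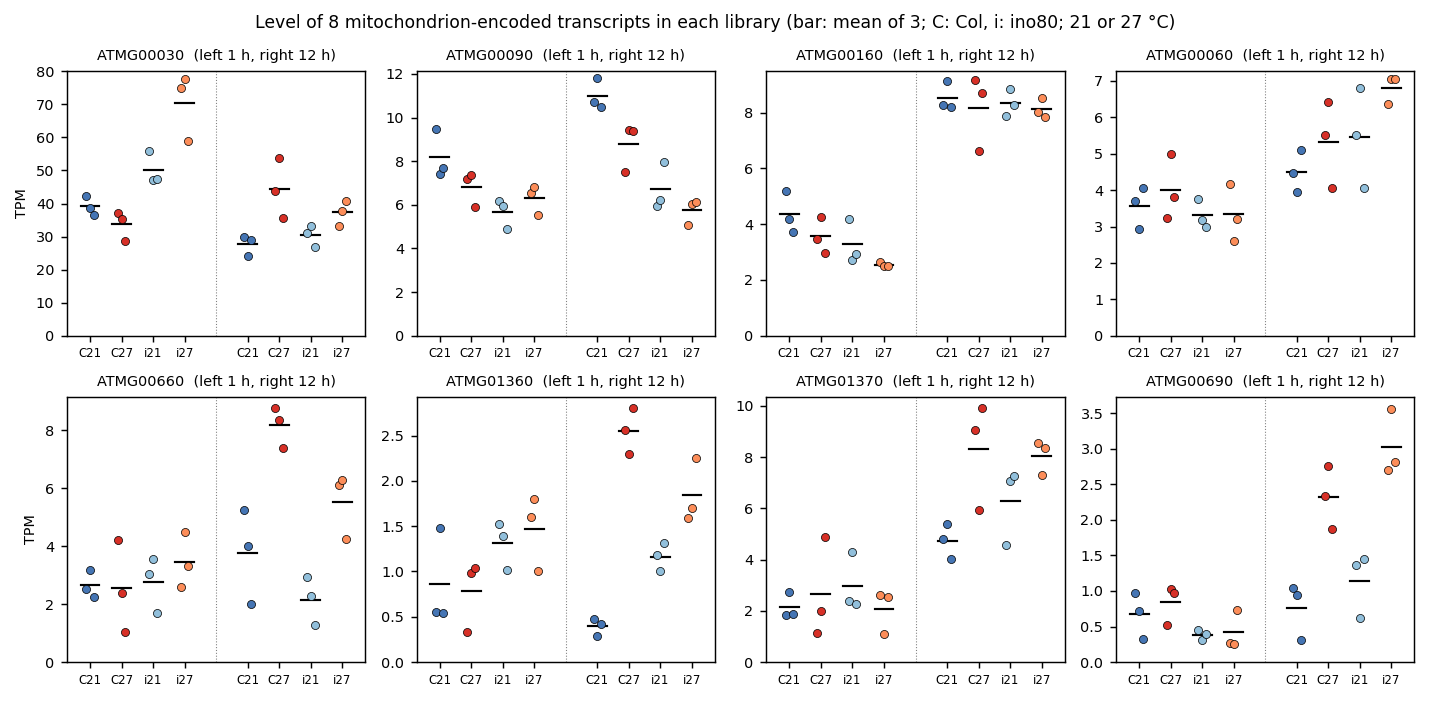
Level (TPM) of 8 members in each library, at 1 h and 12 h, with a bar at the mean of 3 (C, Col; i, ino80; 21 or 27 °C). ATMG00030 is highest in ino80 at 27 °C at 1 h, ATMG00090 lies lower in ino80 than in Col at 21 °C at both times, and ATMG00660, ATMG00690 and ATMG01360 lie higher at 27 than at 21 °C at 12 h.

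Warmth for 12 h brought more calls than any other comparison. In Col, 12 of the 23 tested members rose and 1 fell, where 36.8% of all genes were called higher and 21.8% lower. The 12 include ATMG00630 and ATMG01090, which passed the filter only through warm libraries. The median difference was 0.65 over the members and 0.13 over all genes. All genes shifted upwards in this fit: scaling by median ratios moved their median to 0.01 in both genotypes, from 0.13 in Col and 0.15 in ino80, and rescaled values are given with the results on 12 h of warmth. After rescaling 12 members rose and 2 fell in Col, and over all genes the split of calls went from 7201 higher and 4274 lower to 5570 higher and 5596 lower.

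The largest rise in Col was that of ATMG01360, which stood at 0.476, 0.285 and 0.425 TPM at 21 °C and 2.56, 2.3 and 2.8 TPM at 27 °C. Every warm library lay above every cool one, with a rise of 1.35 ± 0.15 (adjusted p = 2.49e-06, limma) and 1.295 after rescaling. In ino80 the same gene stood at 1.18, 1.0 and 1.32 TPM at 21 °C, above all cool Col libraries, and at 1.59, 1.7 and 2.25 TPM at 27 °C. The genotype difference at 21 °C was 0.63 ± 0.15 (adjusted p = 0.00584, limma) and held without each library.

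The rise of ATMG01360 in ino80, 0.39 ± 0.15 with adjusted p = 0.0373, was lost without ino80 21 °C replicate 1 or 2 or ino80 27 °C replicate 3 (adjusted p of 0.0732 to 0.154), and its adjusted p was 0.107 after rescaling (limma). The difference between the responses, -0.96 ± 0.21, was not called (adjusted p = 0.0567). It was called after rescaling (adjusted p = 0.0421), with no filter on low TPM (0.0323) and with an added 0.1 TPM (0.0447).

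ATMG00660 and ATMG00690 rose in both genotypes. ATMG00660 stood at 5.27, 4.02 and 1.99 TPM in cool Col, 8.77, 8.35 and 7.4 TPM in warm Col, 2.93, 2.27 and 1.29 TPM in cool ino80 and 6.12, 6.27 and 4.25 TPM in warm ino80. Warm and cool libraries did not overlap within a genotype, with rises of 1.01 ± 0.24 in Col (adjusted p = 0.00258) and 1.07 ± 0.24 in ino80 (adjusted p = 0.00176, limma), or 0.90 and 0.94 after rescaling. ATMG00690 stood at 1.04, 0.937 and 0.31 TPM in cool Col and 2.34, 2.76 and 1.88 TPM in warm Col, and at 1.37, 0.627 and 1.44 TPM in cool ino80 and 2.7, 3.57 and 2.82 TPM in warm ino80. It rose by 0.93 ± 0.21 in each genotype without overlap (adjusted p = 0.00134 and 0.0015, limma), or 0.86 and 0.82 after rescaling.

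ATMG01130 also rose in both genotypes, from 0.672, 0.352 and 1.75 TPM to 3.51, 2.2 and 2.3 TPM in Col and from 0.684, 1.06 and 1.44 TPM to 2.86, 2.68 and 3.18 TPM in ino80. The groups did not overlap, and the rises were 0.98 ± 0.24 and 0.94 ± 0.24 (adjusted p = 0.00242 and 0.00351, limma), or 0.92 and 0.83 after rescaling. The calls of ATMG00660, ATMG00690 and ATMG01130 held without each library in both genotypes.

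ATMG00030, ATMG01370 and ATMG00110 rose in Col. ATMG00030 stood at 29.9, 24.1 and 29.1 TPM at 21 °C and 43.9, 53.7 and 35.8 TPM at 27 °C, without overlap, a rise of 0.65 ± 0.13 (adjusted p = 0.000643, limma), or 0.52 after rescaling. In ino80 it stood at 31.2, 33.2 and 26.8 TPM and at 33.3, 37.9 and 40.9 TPM, a difference of 0.29 that was not called (adjusted p = 0.0738) and was 0.13 after rescaling. ATMG01370 stood at 4.81, 5.38 and 4 TPM in cool Col and 9.06, 5.94 and 9.91 TPM in warm Col, a rise of 0.68 ± 0.18 (adjusted p = 0.00468), and ATMG00110 at 0.521, 0.182 and 0.722 TPM and 1.82, 1.51 and 1.39 TPM, a rise of 0.82 ± 0.21 (adjusted p = 0.00375, limma). After rescaling these rises were 0.57 and 0.77, and both were called. Neither pair overlapped. The difference between the genotypes' responses was called in none of these.

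The other rises in Col rest on fewer fragments or on single libraries. ATMG00070 rose by 0.59 ± 0.19 (adjusted p = 0.0166, or 0.0923 without Col 27 °C replicate 1, limma). ATMG00080 stood at 0.399, 1.88 and 0.623 TPM against 1.46, 3.05 and 4.11 TPM, an overlap, and its call (adjusted p = 0.0138) was lost without Col 21 °C replicate 1 or 3 or Col 27 °C replicate 3, at 0.0508 to 0.0698. ATMG01090, noted as subunit 9 of the ATP synthase, went from 0.273, 0 and 0.284 TPM to 1.43, 0.596 and 0.781 TPM, a rise of 0.69 ± 0.23 (adjusted p = 0.0170, or 0.0725 without Col 21 °C replicate 2, limma). ATMG01090 reached 1 TPM only in warm libraries and so was tested only through the groups where it is high. Without Col 27 °C replicate 1 or ino80 27 °C replicate 1 or 3 it was not tested. After rescaling ATMG00070 rose by 0.52, ATMG00080 by 0.91 and ATMG01090 by 0.67, with adjusted p of 0.0366, 0.0245 and 0.0235 (limma).

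ATMG01220, a reading frame noted as unknown, rested on 2 fragments in cool Col and 10 in warm Col, a ratio of 5.19 with a counting interval of 1.11 to 48.8, and its call (adjusted p = 0.0163, limma) was lost without Col 21 °C replicate 1 or 2 or Col 27 °C replicate 1, at 0.0637 to 0.0757. ATMG00630 was at 0 in all cool Col libraries and at 2.37, 0 and 1.11 TPM in warm Col. Only warm libraries of ATMG00630 reached 1 TPM. It was thus tested only through the groups where it is high, a choice that favours a rise. With a floor of 3 fragments over the cool group the level per sequenced fragment was at least 3.46-fold higher in warm Col, and its call (adjusted p = 0.0379, limma) was lost when any 1 of 5 libraries was left out, all of both groups but Col 27 °C replicate 2, at 0.0750 to 0.207. After rescaling the adjusted p was 0.0239 for ATMG01220 and 0.0418 for ATMG00630.

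The member that fell in Col was ATMG00560, noted as an OB-fold nucleic acid-binding protein by the nuclear gene AT2G07715. It stood at 0.911, 1.61 and 0.689 TPM at 21 °C and 0.303, 0.361 and 0.426 TPM at 27 °C, without overlap, a change of -0.58 ± 0.18 (adjusted p = 0.0128, or 0.0792 without Col 21 °C replicate 2, limma), or -0.64 after rescaling (adjusted p = 0.00898). The nuclear gene AT2G07715 fell as well, by -0.50 ± 0.15 in Col (adjusted p = 0.00956) and -0.57 in ino80 (adjusted p = 0.00444). The pair share sequence, so their reads cannot be told apart with certainty.

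In ino80, 12 h of warmth raised 9 of the 23 members and lowered 1, where 38.1% of all genes were called higher and 19.3% lower. The count of rises is thus near the share over all genes. It includes ATMG00630, ATMG01120 and ATMG01170, which passed the filter only through warm libraries. The median difference was 0.50 over the members and 0.15 over all genes. After scaling by median ratios or by quantiles, the split was 4 higher and 2 lower. Over all 19578 genes tested it was 5242 higher and 5424 lower by median ratios, and 5359 higher and 5390 lower by quantiles. ATMG00650 stood at 0.724, 0.748 and 1.91 TPM at 21 °C and 3.78, 4.05 and 2.94 TPM at 27 °C, without overlap, a rise of 1.15 ± 0.33 (adjusted p = 0.00768, limma) that was 1.04 after rescaling and held without each library. In Col the same gene stood at 2.13, 1.12 and 0 TPM against 1.86, 1.94 and 2.85 TPM, with overlap and no call. With ATMG00660, ATMG00690 and ATMG01130, described above, it makes up the 4 rises that remained after rescaling by median ratios.

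The 5 other rises in ino80 were weaker, and ATMG01360 is given above. ATMG00630 (0, 0.34 and 0 TPM against 2.07, 0.369 and 1.15 TPM, 1 and 10 fragments, a ratio of 10.6 with a counting interval of 1.504 to 458.8) had adjusted p = 0.0439, and ATMG00640 had 0.0462. Each was lost when any 1 of 8 libraries was left out, the 3 of Col at 21 °C, Col 27 °C replicate 3 and ino80 replicates 1 and 3 of both temperatures, at 0.0506 to 0.187 for ATMG00630 and 0.0516 to 0.175 for ATMG00640 (limma). ATMG01120 rose by 0.57 ± 0.21 (adjusted p = 0.0293) and lost its call without ino80 21 °C replicate 1 or 2 or ino80 27 °C replicate 3, at 0.0532 to 0.109. After rescaling ATMG00630, ATMG00640 and ATMG01120 were not called (adjusted p = 0.0632, 0.0909 and 0.0613, limma). ATMG00630 and ATMG01120 reached 1 TPM only in warm libraries, so both were tested only through the groups where they are high. With no filter on low TPM, ATMG00630 was not called in ino80 (adjusted p = 0.0559, limma).

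ATMG01170 rose by 0.61 ± 0.22 (adjusted p = 0.0263) in ino80 and lost its call without ino80 21 °C replicate 2 or 3 or ino80 27 °C replicate 1 or 2, at 0.0506 to 0.104 (limma), and after rescaling (adjusted p = 0.0514). This gene too reached 1 TPM only in warm libraries and was tested only through the groups where it is high. The fall was that of ATMG00670, from 3.84, 3.42 and 3.08 TPM to 1.8, 2.67 and 2.31 TPM, without overlap. Its change of -0.45 ± 0.17 (adjusted p = 0.0374, limma) was lost without ino80 21 °C replicate 1 or 2 or ino80 27 °C replicate 1 or 3, at 0.0664 to 0.141, and was -0.57 after rescaling (adjusted p = 0.0112).

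Between the genotypes, the 12 h table showed few differences among the members, and ATMG00090 was the one called at both temperatures. At 21 °C, 2 of the 23 members were higher in ino80, ATMG01360 and ATMG00110, and 1 was lower, where 16.7% of all genes were called higher and 12.1% lower. At 27 °C none was higher and 1 lower, where 18.7% and 11.5% of all genes were called. The median differences of the members were 0.15 at 21 °C and 0.01 at 27 °C, against 0.03 and 0.05 over all genes.

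ATMG00090 stood at 10.7, 11.8 and 10.5 TPM in cool Col and 5.94, 6.23 and 7.99 TPM in cool ino80, and at 7.53, 9.43 and 9.4 TPM in warm Col and 5.08, 6.04 and 6.15 TPM in warm ino80. At both temperatures every ino80 library lay below every Col library, by -0.64 ± 0.12 (adjusted p = 0.00145) at 21 °C and -0.53 ± 0.12 (adjusted p = 0.00488, limma) at 27 °C. Both calls held without each library, each with 144 to 340 fragments. With the 1 h result in cool seedlings, ATMG00090 was thus called lower in ino80 in 3 of the 4 comparisons of genotype. With 12 h of warmth it did not rise with the other members: its differences were -0.30 ± 0.12 in Col (adjusted p = 0.0516) and -0.19 in ino80 (adjusted p = 0.215), and after rescaling -0.42 and -0.32, then called (adjusted p = 0.00851 and 0.0347, limma).

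ATMG00110 was higher in cool ino80 than in cool Col, at 0.707, 1.64 and 1.49 TPM against 0.521, 0.182 and 0.722 TPM, with overlap. Its difference of 0.62 ± 0.21 (adjusted p = 0.0379, limma) was lost without Col 21 °C replicate 1 or 2 or ino80 21 °C replicate 2 or 3, at 0.0685 to 0.153. Under quantile normalization the split at 21 °C was 1 higher and 1 lower. No member was called for a different response of the genotypes to 12 h of warmth in the limma fit, where 0.327% and 0.424% of all genes were called, and 2 members had an unadjusted p below 0.05.

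**Figure D5:**
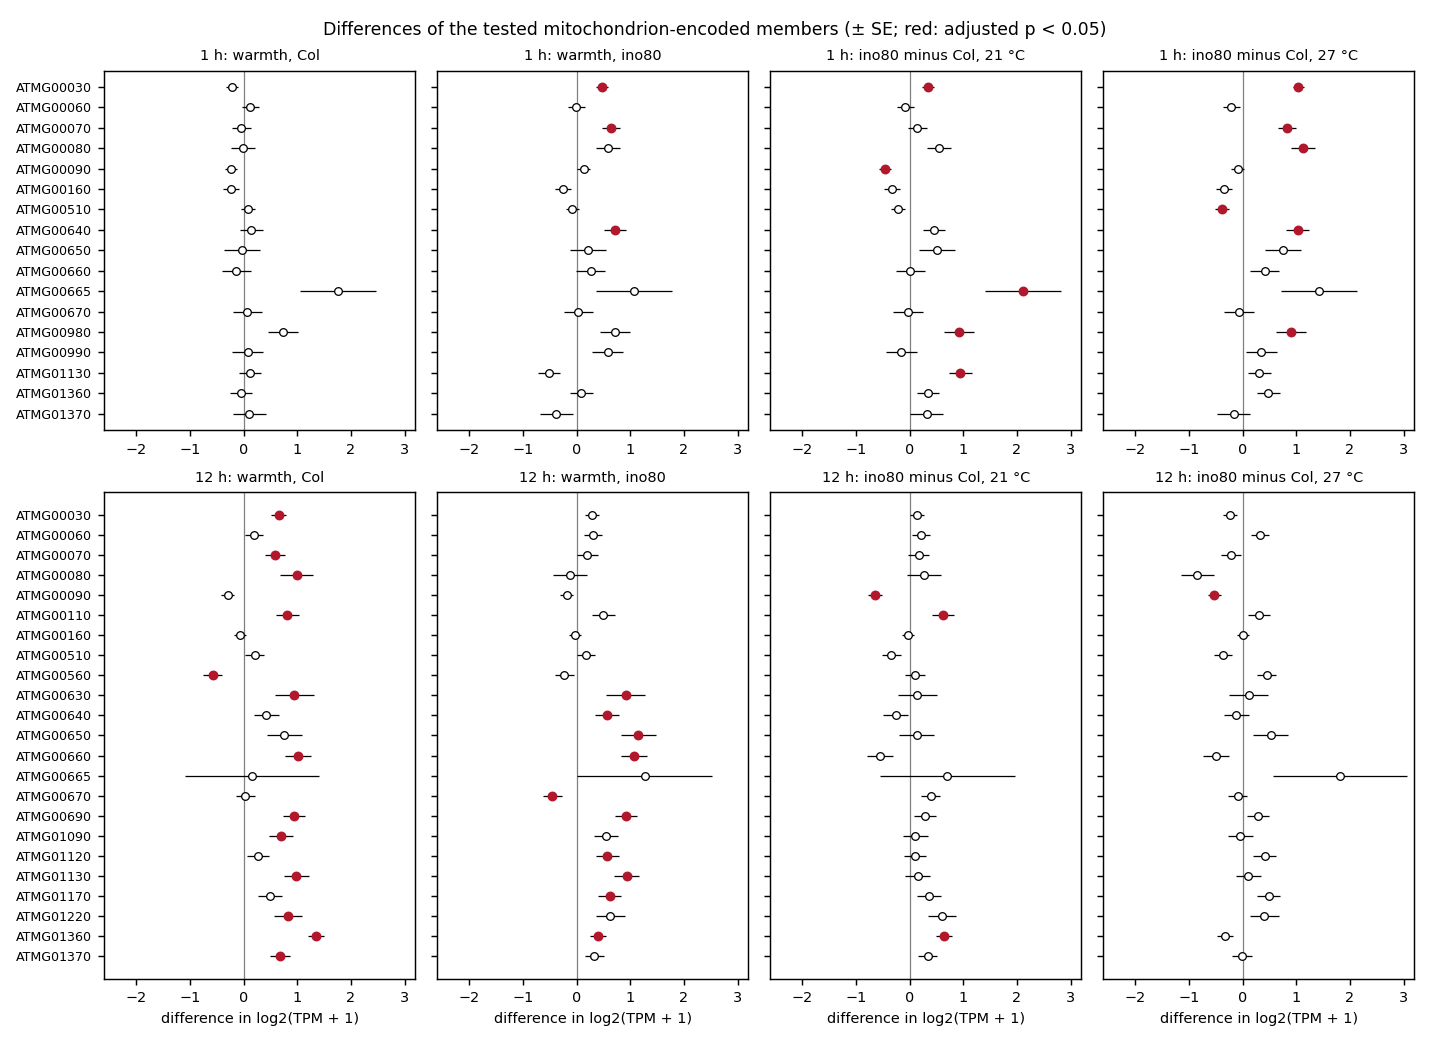
Difference of each tested member on the scale of log2(TPM + 1), with its standard error (bars), in the 4 comparisons of temperature and genotype at 1 h and 12 h, with members called at an adjusted p below 0.05 in red (limma). No member is red for 1 h of warmth in Col, and most members lie to the right of 0 for 12 h of warmth in both genotypes.

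ATMG00160 and ATMG00060, of the 6 members with the highest mean level, were called in no comparison. ATMG00160 stood at 5.21, 4.17 and 3.71 TPM in cool Col, 3.45, 4.25 and 2.97 TPM in warm Col, 4.2, 2.72 and 2.93 TPM in cool ino80 and 2.65, 2.51 and 2.49 TPM in warm ino80 at 1 h. At 12 h its 12 libraries lay between 6.63 and 9.17 TPM, with differences of -0.07 ± 0.11 and -0.03 ± 0.11 for warmth in Col and ino80. Its differences between the genotypes at 1 h, -0.33 ± 0.14 at 21 °C and -0.35 ± 0.14 at 27 °C, were not called (adjusted p = 0.0888 and 0.0687, limma). ATMG00060 lay between 2.61 and 4.99 TPM at 1 h and between 3.95 and 7.06 TPM at 12 h.

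Implied lengths were set beside the annotation of the mitochondrial genome. Of 23 members with at least 20 values above 0, 6 had an implied length equal to exactly 1 of the 120 spans of the annotated mitochondrial genome. These were ATMG00070 at 573 bases (nad9, a complex I subunit), ATMG00080 at 540 (rpl16, a ribosomal protein), ATMG00110 at 621 (ccmB, cytochrome c maturation), ATMG00160 at 2126 (cox2, a complex IV subunit), ATMG00640 at 579 (atp4, an ATP synthase subunit) and ATMG00660 at 450 (an open reading frame, ORF149). An equality of lengths is no identification. The other members compared had several equal spans, 5 of them, or none, 12 of them. In the TAIR10.1 sequences atp4, ccmB, cox2 and nad9 had 0% of their coding bases in the nuclear copy and rpl16 had 40.6%.

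The nuclear genes that serve the mitochondrial genome were counted from lists drawn up with earlier results of these data known. At 1 h, warmth in Col raised 7 and lowered 1 of the 23 tested genes for mitochondrial transcription and RNA processing, and in ino80 it raised 5 and lowered none, where 15.7% and 15.2% of all genes were called higher, so that the count in ino80 is near the share over all genes. MORF1, an RNA editing factor, rose by 0.49 ± 0.07 in Col (adjusted p = 3.02e-05) and 0.36 ± 0.07 in ino80 (adjusted p = 0.000583, limma), and BIR6, a splicing factor, by 0.44 ± 0.10 and 0.34 ± 0.10. At 12 h the same list, with 24 genes tested, had 2 called higher and 11 lower in Col and 1 higher and 10 lower in ino80, where 36.8% and 38.1% of all genes were called higher and 21.8% and 19.3% lower, with medians of -0.21 and -0.12 against 0.13 and 0.15 over all genes, or 1 higher and 13 lower in each after rescaling. MORF1 fell by -0.73 ± 0.10 and -0.58 ± 0.10, RIP1, also an editing factor, by -0.60 ± 0.07 and -0.52 ± 0.07, and PMH2, an RNA helicase, by -0.50 ± 0.09 and -0.47 ± 0.09. Members of the ATMG genes rose in the same libraries, and no link between them was tested.

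Of the 9 tested genes for mitochondrial DNA maintenance, 12 h of warmth lowered 4 in Col and 3 in ino80 and raised none (6 and 5 lowered after rescaling), where 21.8% and 19.3% of all genes were called lower and 36.8% and 38.1% higher. GYRA, a DNA gyrase subunit of both organelles, fell by -1.32 ± 0.11 in Col (adjusted p = 9.68e-08) and -1.14 ± 0.11 in ino80 (adjusted p = 4.71e-07, limma). AT1G30680, the organellar DNA primase and helicase, fell by -1.22 ± 0.11 and -1.35 ± 0.11. At 1 h, ino80 was lower in AT1G30680 by -0.69 ± 0.10 at 21 °C and -0.47 ± 0.10 at 27 °C, and MSH1, which guards organellar genomes against recombination, was lower by -0.44 ± 0.12 and -0.51 ± 0.12. POLGAMMA1, an organellar DNA polymerase, was higher in ino80 at 21 °C by 0.52 ± 0.08 (adjusted p = 0.000196, limma), so that 1 of the 9 was called higher and 2 lower there. Over all genes 15.4% were called higher and 20.5% lower in that comparison, so these counts are near the shares over all genes.

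Of the 30 tested nuclear subunits of the respiratory chain and ATP synthase, 13 were lower in ino80 at 21 °C and 17 at 27 °C at 1 h and none was higher, where 20.5% and 20.4% of all genes were lower. At 12 h, 9 and 11 of the 30 were higher and none lower, where 16.7% and 18.7% of all genes were higher. After rescaling these counts were 8 and 14 lower and none higher at 1 h, and 7 and 7 higher with 0 and 2 lower at 12 h. CYTC-2, a cytochrome c, was lower at 1 h by -0.65 ± 0.07 and -0.45 ± 0.07, and EMB1467, a complex I subunit, was higher at 12 h by 0.26 ± 0.05 and 0.33 ± 0.05 (adjusted p = 0.00179 and 0.000315, limma). With 1 h of warmth 7 rose and 3 fell in Col and 6 rose and 2 fell in ino80. Over all genes 15.7% and 15.2% were then called higher and 18.5% and 16.8% lower. With 12 h 4 rose and 10 fell in Col and 6 rose and 10 fell in ino80. Here 36.8% and 38.1% of all genes were called higher and 21.8% and 19.3% lower. After rescaling the counts were 3 and 13 in Col and 3 and 17 in ino80. Over all 19578 genes tested the rescaled calls were 5570 higher and 5596 lower in Col and 5242 and 5424 in ino80. GAMMA CAL2, a carbonic anhydrase-like subunit of complex I, rose at 12 h by 0.82 ± 0.07 in Col and 0.76 ± 0.07 in ino80.

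Of the 11 tested genes of mitochondrial stress and alternative respiration, 3 rose and 2 fell with 1 h of warmth in Col and 4 rose and 2 fell in ino80, where 15.7% and 15.2% of all genes were called higher and 18.5% and 16.8% lower. The largest rise was that of AT5G51440, a small heat shock protein, at 3.25 ± 0.10 and 3.26 ± 0.10. NDB2, an alternative NADH dehydrogenase, rose by 0.68 ± 0.07 and 0.62 ± 0.07. At 12 h, 6 of 10 rose and 1 fell in each genotype (4 and 1 after rescaling), where 36.8% and 38.1% of all genes were called higher. At 12 h 4 were higher and none lower in ino80 than in Col at either temperature (0 to 4 at 21 °C and 2 to 4 at 27 °C without single libraries), where 16.7% and 18.7% of all genes were higher. At 1 h none of the 11 was higher and 2 were lower at either temperature. Over all genes 15.4% and 17.1% were then higher and 20.5% and 20.4% lower, so the count of lower genes is near the share over all genes. AT5G51440 was higher in ino80 at 12 h by 0.82 ± 0.22 at 21 °C and 0.73 ± 0.22 at 27 °C, and lower at 1 h by -0.83 ± 0.10 and -0.82 ± 0.10 (adjusted p = 1.31e-05 and 1.34e-05, limma).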

How the data were processed

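RNA-seq libraries of whole seedlings were analysed from tables of TPM that the authors computed and deposited, 1 for each time with 12 libraries each. Per the submitters' processing notes, the TAIR10 build was used together with DESeq2 1.26.0, HTSeq 0.11.2, HISAT2 2.1.10 and fastp 0.20.1, with no role or order given. Gene lengths, filters and the treatment of reads with several matches are not given in the sources used here.

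Each table was fitted alone with limma 3.58.1 (R 4.3.3) on log2(TPM + 1), over genes with at least 1 TPM in at least 3 of 12 libraries, 19190 at 1 h and 19578 at 12 h, with 4 group means, empirical Bayes moderation with a trend and 5 two-sided contrasts. The Benjamini-Hochberg adjustment ran over all tested genes of a contrast. The fit was tested on simulated data. Implied lengths and fragments were estimated from the steps between TPM values, a value counting as whole within 0.1 fragments plus 0.0003 per fragment. Nuclear matches of the mitochondrial genome were found with blastn 2.17.0. Intervals and floors cover counting error only. The step sets the precision of low members: 1 fragment in 324 bases was worth 0.208 to 0.403 TPM for ATMG00030 at 1 h.

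Named members were the 10 of highest level, those called with at least 5 TPM and no overlap, those with an annotated class, and those called repeatedly; other called members are named so that every call is accounted for. The members and lists were chosen with earlier results of these data known. Alternatives were other pseudocounts, filters, scalings, a robust fit, fewer groups, a replicate block and leaving out each library. The rescaled and left-out counts of the nuclear lists and the ratios of fragments were chosen after seeing the data.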

Additional observations from a re-analysis of the deposited data

Results flagged for a closer look

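The response of ATMG00030 to 1 h of warmth differed between the genotypes by a test of the difference itself. The response in ino80 minus that in Col was 0.69 ± 0.15 on the scale of log2(TPM + 1) (adjusted p = 0.0293, limma), with all 3 warm libraries of ino80 above all 3 cool ones and the Col groups overlapping. The call was lost when any 1 of 7 libraries was left out and was 0.0665 in adjusted p with no filter on low TPM. Groups of 3 were not examined for outlying samples.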

How the results depend on the processing

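None of the 42 called differences of members changed direction in the alternatives in which it could be tested; differences that were not called did change sign in some, such as ATMG00070 for warmth in Col at 1 h, from -0.22 to 0.13 without single libraries. Among the values of single members, 3018 kept their side of the threshold, 78 lost a call and 69 gained one. Counts of called members moved by over 1.5 times in the following cases, and the cause was not tested except that a mean of at least 5 TPM left 3 members to test at 1 h and 6 at 12 h. With that filter, 1 was called for warmth in ino80 at 1 h, 3 for genotype at 21 °C at 1 h, 1 for genotype at 27 °C at 1 h, 3 for warmth in Col at 12 h, 0 for warmth in ino80 at 12 h and 1 for genotype at 21 °C at 12 h. With no filter, where 66 and 64 members were tested, 1 was called for warmth in Col at 1 h, 0 for the interaction at 1 h, 5 for genotype at 27 °C at 12 h and 1 for the interaction at 12 h. With 0.1 TPM added, the counts were 2 for warmth in Col at 1 h, 6 for warmth in ino80 at 12 h, 2 for genotype at 27 °C at 12 h and 1 for the interaction at 12 h. With 5 TPM added, they were 6 for warmth in ino80 at 1 h and 2 for genotype at 27 °C at 12 h. Median-of-ratios scaling gave 6 for warmth in ino80 and 1 for the interaction at 12 h, and quantile normalization 6 for warmth in ino80 and 2 for genotype at 27 °C at 12 h. Fitting only the groups compared gave 1 for warmth in Col at 1 h and 2 for genotype at 27 °C at 12 h. Requiring a difference of at least 0.5 left 3 for genotype at 21 °C at 1 h.

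Replicate numbers did not pair the samples: deviations of same-numbered libraries correlated at -0.05 to 0.12 over 18 pairs at 1 h and -0.29 to 0.20 at 12 h. With the replicate block, 2 were called for warmth in Col at 1 h and 3 for genotype at 27 °C at 12 h.

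Without ATMG00030 the mean summed level was 38.5, 42.6, 51.7 and 62.9 TPM at 1 h and 54.6, 79.9, 55.1 and 82.2 TPM at 12 h (Col at 21 and 27 °C, then ino80). Without ATMG00665, it was 90.8 TPM in ino80 at 21 °C and 117 TPM at 27 °C at 1 h. Both were chosen after seeing the data.

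Leaving out each library gave ranges of 0 to 2 calls for warmth in Col, 3 to 4 for warmth in ino80, 2 to 7 and 4 to 9 for genotype at 21 and 27 °C and 0 to 1 for the interaction at 1 h. At 12 h they were 9 to 15, 5 to 11, 2 to 6, 1 to 2 and 0 to 0. The summed level ran from 75.2 to 81.1, 72.1 to 81.2, 99.9 to 105 and 127 to 142 TPM at 1 h, and from 78.5 to 85.6, 114 to 132, 83.4 to 89.7 and 113 to 125 TPM at 12 h, in the same order of groups. Depth limits the members not tested, whose differences were not detectable here, and the precision of those with few fragments.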

Other observations

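The balance between the members with the most fragments differed between the genotypes, and it was not tested. ATMG00090 made up a mean of 10.6% of the summed ATMG level in cool Col, 8.94% in warm Col, 5.60% in cool ino80 and 4.74% in warm ino80 at 1 h. At 12 h the shares were 13.4, 7.15, 7.85 and 4.82%. A share moves with every other member, ATMG00030 above all.

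AT2G20720, a nuclear gene of the list for mitochondrial transcription and RNA processing, stood out among the lists in the comparison of genotypes. It was lower in ino80 by -1.47 ± 0.14 and -1.53 ± 0.14 at 21 and 27 °C at 1 h and by -1.58 ± 0.18 and -1.32 ± 0.18 at 12 h (adjusted p = 1.48e-06, 9.88e-07, 1.89e-05 and 7.49e-05, limma).

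Each library is scaled to the same total, so that a mitochondrial level is a share and not an amount. The part of RNA selection, which the labels do not state, and of shared nuclear sequence in the levels was not tested.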
